A study of Homo sapiens with 3 samples.

Results

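SOX4 and STAT6 peaks were examined at 8 genes for drug and bile efflux pumps in Hep3B, an established human hepatocellular carcinoma line. The genes ABCB1, ABCB4, ABCB11, ABCC1, ABCC2, ABCC3, ABCC4 and ABCG2 were chosen by name out of 20039 protein-coding genes. The choice was made with earlier results of these data known. A peak was assigned to a gene when it overlapped the gene or the 1000 bp on either side. The labels give Hep3B cells with no treatment or genetic change for all 3 libraries, 1 with a SOX4 antibody, 1 with a STAT6 antibody and 1 with IgG, a non-specific antibody used as the background. The libraries are titled ChIP and were made with a CUT&RUN kit, in which a nuclease led to the antibody cuts out the DNA around it. A peak is a stretch where reads exceed those of IgG. With 1 library for each antibody there were no replicates, and the values are given without tests.

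ATP-binding cassette (ABC) transporters use ATP to move substrates across membranes. In hepatocytes they release bile salts, phospholipids and conjugated drugs into bile or blood, and in tumor cells several of them export chemotherapeutics. SOX4 is an HMG-box factor and STAT6 is the factor activated by interleukin-4 signalling, and the libraries addressed which genes the factors share. RNA was not measured here, so a peak gives a position of enriched DNA and not the activity of a gene.

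Peaks were concentrated at ABCB1, ABCG2 and ABCB4 and were absent or nearly absent at the other 5 genes. ABCB1, which encodes P-glycoprotein, an exporter of many hydrophobic drugs, held 22 SOX4 and 29 STAT6 peaks. ABCG2, the breast cancer resistance protein, held 12 SOX4 and 15 STAT6 peaks. ABCB4, which moves phosphatidylcholine into bile, held 6 SOX4 and 3 STAT6 peaks. ABCC3, an exporter of conjugates on the blood side of the hepatocyte, had 1 SOX4 peak beyond its end. ABCB11, ABCC1, ABCC2 and ABCC4 held no peak in either list.

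A SOX4 peak was thus assigned to 4 of the 8 genes (50%, Wilson 95% interval 21.5% to 78.5%), against 6.35% of all protein-coding genes. STAT6 peaks were assigned to 3 of 8 (37.5%, Wilson 95% interval 13.7% to 69.4%), against 1.08%, and peaks of both lists to the same 3 genes, against 1.03%. The intervals cover counting error only. The 8 genes were chosen with earlier results of these data known, so the excess over all genes is a description and not support. The genes are long, with length ranks from 855 for ABCC4 to 5592 for ABCC3 among 20039 genes, and a long gene offers more sequence for a peak. The longest of them, ABCC4 with 282 kb, held none, and neither did ABCC1 with 194 kb. The part of gene length in these shares was not tested.

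**Figure D1:**
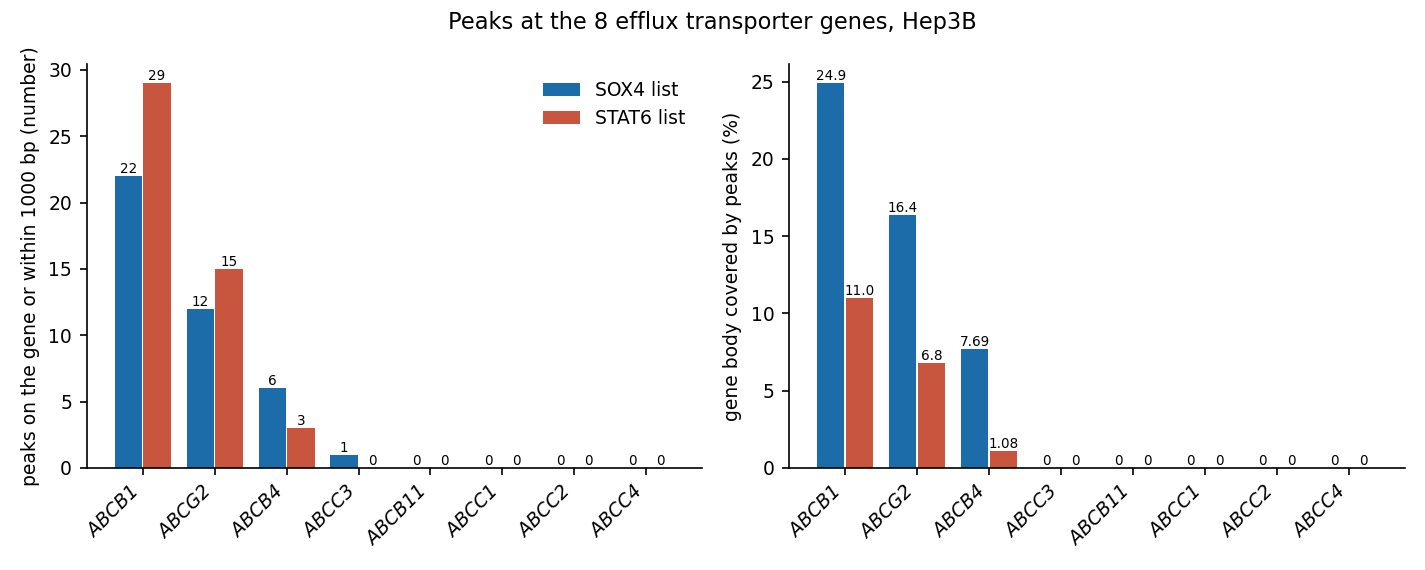
Number of peaks on each gene or within 1000 bp (left) and share of the gene body covered by peaks in percent (right), with SOX4 bars in blue and STAT6 bars in red. ABCB1 leads in both lists with 22 and 29 peaks, and 4 genes stand at 0 in both panels.

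The transcription starts are the places where peaks and annotation could be set side by side, and their sequences are shown first so that starts with peaks can be read beside a start without. RefSeq promoter windows of assembly GRCh38.p14 were matched for 5 of the 8 genes, 10 windows in all. Each window reached from 250 bases before a start to 50 bases after it. ABCB4, ABCC1 and ABCC3 had no entry. ABCB1 and ABCG2 lie on the minus strand and have several starts within the gene. Peaks of both lists overlapped 3 of the 10 windows, both of ABCB1 and the outermost of ABCG2. Over all 35116 windows, 0.555% overlapped a SOX4 peak and 0.310% a STAT6 peak. The 250 bases before 4 of these starts read as follows, 5′ to 3′ on the strand of the gene, from RefSeq GRCh38.p14. Capitals mark matches to the SOX core ACAAAG on either strand or to TTC and GAA with 3 or 4 bases between them, the form of STAT sites.

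ABCB1 inner start, chr7:87600885-87601134, minus strand, peaks in both lists: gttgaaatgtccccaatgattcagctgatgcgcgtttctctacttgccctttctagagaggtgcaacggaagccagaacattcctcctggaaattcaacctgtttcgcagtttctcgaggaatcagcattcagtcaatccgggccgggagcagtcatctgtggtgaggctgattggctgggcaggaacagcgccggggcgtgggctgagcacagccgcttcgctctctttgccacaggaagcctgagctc

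ABCB1 outer start, chr7:87713296-87713545, minus strand, peaks in both lists: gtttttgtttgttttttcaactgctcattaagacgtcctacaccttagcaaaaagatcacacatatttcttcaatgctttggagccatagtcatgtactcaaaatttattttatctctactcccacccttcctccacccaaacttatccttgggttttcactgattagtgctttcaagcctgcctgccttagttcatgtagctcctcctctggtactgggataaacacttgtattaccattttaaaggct

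ABCG2 outer start, chr4:88231627-88231876, minus strand, peaks in both lists: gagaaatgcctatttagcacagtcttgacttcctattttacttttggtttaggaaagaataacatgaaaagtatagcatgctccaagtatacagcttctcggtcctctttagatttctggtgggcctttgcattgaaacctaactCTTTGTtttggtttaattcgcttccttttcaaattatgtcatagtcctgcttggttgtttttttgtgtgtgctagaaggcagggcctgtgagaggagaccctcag

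ABCG2 inner start, chr4:88159291-88159540, minus strand, no peak in either list: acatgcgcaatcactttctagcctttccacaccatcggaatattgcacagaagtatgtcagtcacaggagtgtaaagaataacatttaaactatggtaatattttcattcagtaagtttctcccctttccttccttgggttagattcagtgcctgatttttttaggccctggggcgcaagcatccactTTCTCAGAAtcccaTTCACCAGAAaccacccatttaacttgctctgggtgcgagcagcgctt

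Matches were present both with and without peaks in these 4 sequences. Neither ABCB1 sequence held a match to the letters searched, but the SOX search was narrower than the SOX4 consensus the paper gives. That consensus also allows T where the searched cores begin with A, and it asks for A or T before that base. The outer ABCB1 sequence holds TTCAATG, a consensus form with T that was not searched and is not in capitals. The inner one lay wholly under peaks of both lists. The outer one lay wholly under a SOX4 peak, but the STAT6 peak there covered only 83 of the 300 bases of the window. Most of the outer sequence was therefore outside the STAT6 peak. The ABCG2 outer start held ACAAAG once, on the other strand, 105 to 100 bases before the start. The same sequence also holds CATTGAA, the reverse complement of TTCAATG, which was likewise not searched. The ABCG2 inner start without a peak held the STAT form with 4 bases between TTC and GAA, 48 to 39 bases before the start, and the form with 3 bases, 62 to 54 bases before it. Both strands were searched, and ACAATG was searched as well. Of the other 6 sequences of these genes only that of ABCC2 held a match to the letters searched, to ACAAAG. On its strand this match has C before the core, which the consensus of the paper excludes. The ABCB11 sequence, without a peak, holds CATTGAT, the reverse complement of the consensus form ATCAATG, which was not searched. Whether starts with and without peaks differ in the whole consensus was not tested. Over all 35116 windows, the 250 bases held ACAAAG in 13.7%, ACAATG in 9.29%, the STAT form with 4 bases in 5.38% and that with 3 bases in 6.57%. The 2 STAT matches did not overlap. A match describes letters and not occupancy, and the absence of one says only that these letters were not in the 250 bases.

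The inner start of ABCB1 lay under a SOX4 peak (87599379 to 87601781) with a fold enrichment over IgG of 128, and the summit lay 48 bp downstream of the start. The STAT6 peak there, from 87599980 to 87601300, had a fold enrichment of 13.0 with its summit 0.126 kb upstream of the start. Both peaks covered the whole window of 300 bases. At the outer start, at the other end of the gene, the SOX4 peak from 87712461 to 87715202 had a fold of 81.6, and the STAT6 peak from 87713023 to 87713328 had one of 4.71, among the lowest of the gene. Their summits lay 74 bp and 96 bp downstream of the start, and the STAT6 peak covered 83 of the 300 bases.

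ABCG2 has 5 annotated starts, 4 of them close together in the middle of the gene and 1 at its end. The end start lay under the highest SOX4 peak of the gene, from 88230353 to 88232276, with a fold of 147 and rank 83 of the 4513 SOX4 peaks. The STAT6 peak there ran from 88230846 to 88231825 with a fold of 14.2. The 4 inner windows, 3 of which overlap one another, held no peak, and the nearest SOX4 summits were 18.8 to 19.4 kb away from these starts. The sequence before the inner starts was richer in G and C at 3 of the 4, with 71.2% to 73.6%. The remaining inner start had 43.6% and the end start 40%, beside a median of 58.0% over all windows. The ABCB1 starts, both with peaks, had 55.6% at the inner and 39.2% at the outer one. The starts of ABCB11, ABCC2 and ABCC4, without peaks, had 46.4%, 45.6% and 80.4%. The part of base composition was not tested. The genes without a peak have none at their starts by definition. Promoter entries were available for 3 of them. The summit nearest to the ABCB11 start was a SOX4 summit 18.1 kb away, that nearest to the ABCC4 start was 129 kb away and that nearest to the ABCC2 start 590 kb.

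**Figure D2:**
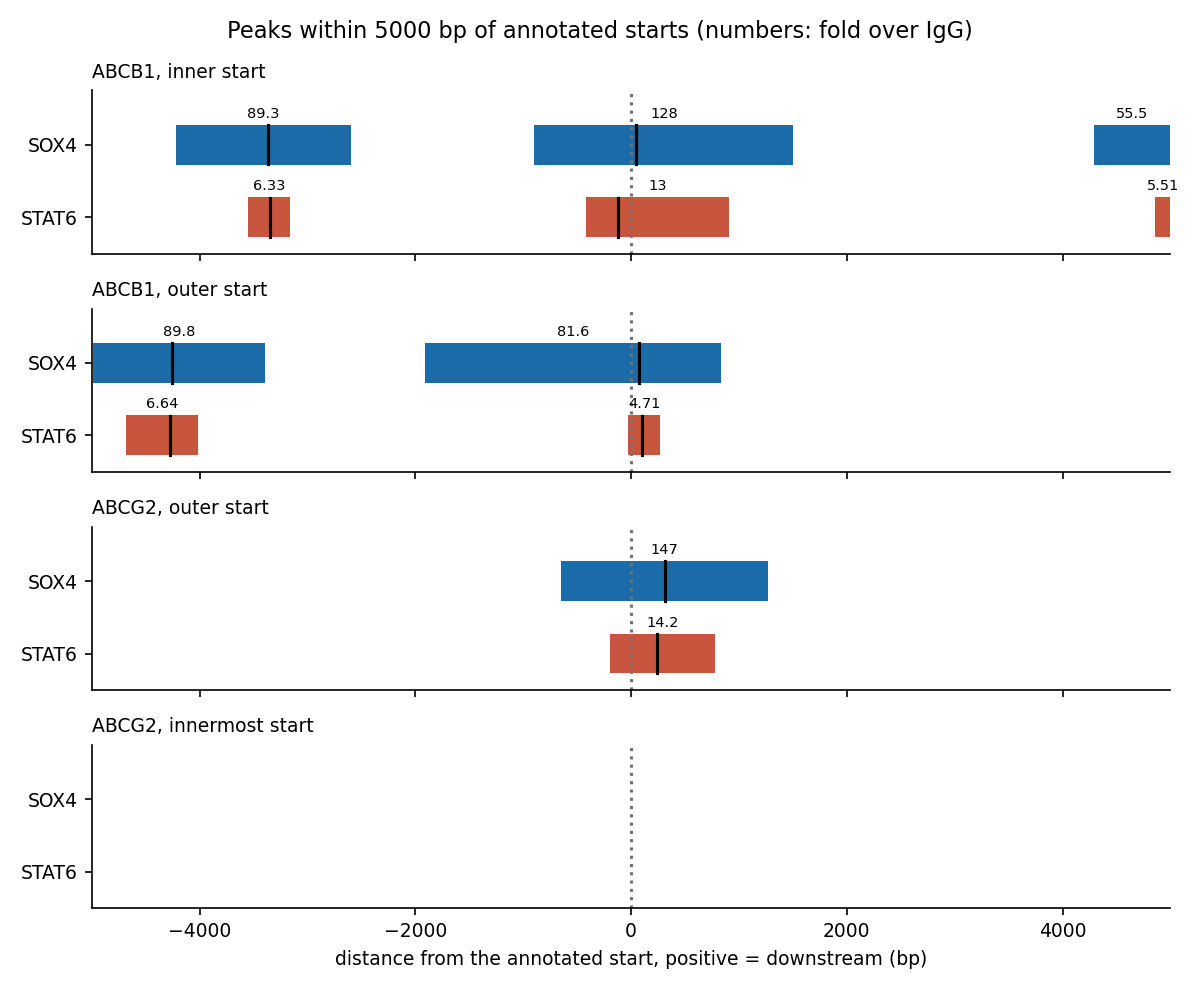
Peaks within 5000 bp of 4 annotated starts, with the distance from the start in bp on the horizontal axis (positive is downstream), SOX4 peaks in blue, STAT6 peaks in red, summits as black lines and the fold enrichment over IgG above each peak. At the inner ABCB1 start the folds are 128 and 13.0, and no peak is present around the innermost ABCG2 start.

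Along ABCB1 (chromosome 7, 87503017 to 87713295, 210 kb) the peaks formed a series rather than a single site. SOX4 peaks covered 24.9% of the gene body and STAT6 peaks 11%. Exon positions were not analysed here, so whether the peaks and their spacing follow the exons of ABCB1 or of ABCG2 was not tested. The series was dense from the 3′ end of the gene up to the inner start. Of the SOX4 summits, 19 of 22 lay in these 97.9 kb, where SOX4 peaks covered 48.1% of the sequence. The remaining 112 kb, up to the outer start, held 3 SOX4 summits and were covered to 4.71%. For STAT6 the numbers were 25 of 29 summits and 21.4% against 4 summits and 1.92%. The 20% of the gene nearest its 3′ end held 10 SOX4 and 17 STAT6 summits. The median distance between neighbouring summits was 4.57 kb for SOX4 and 3.24 kb for STAT6.

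A pair of long stretches of ABCB1 was free of peaks. SOX4 peaks were missing from 87650211 to 87712460 (62.2 kb, 29.6% of the gene) and from 87605109 to 87648280 (43.2 kb), and STAT6 peaks were missing from nearly the same stretches, with lengths of 63.3 kb and 44.2 kb. They were separated by 1 pair of peaks. In that pair the SOX4 peak from 87648281 to 87650210 had a fold of 95.3 and the STAT6 peak inside it one of 8.09. RUNDC3B, a protein-coding gene that overlaps this part of ABCB1, covers the same pair and the pair at the outer start, so that they cannot be assigned to one gene. Beyond ABCB1, RUNDC3B held 2 more SOX4 peaks, with folds of 89.8 and 14.2, and 1 more STAT6 peak, with a fold of 6.64.

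The SOX4 peaks of ABCB1 were all high. The lowest had a fold of 55.5, the median was 98.2 and the highest was 145 at 87543400 to 87546688, which placed them at ranks 90 to 563 of 4513. The STAT6 folds ranged from 4.43 to 17.4 with a median of 8.22, at ranks 50 to 788 of 1078. The highest STAT6 peak, from 87543908 to 87545164, lay inside the highest SOX4 peak with its summit 12 bp away, and this pair had the lowest sum of ranks of the gene. SOX4 peaks were 1495 to 4115 bp wide with a median of 2331 bp, and STAT6 peaks were 293 to 1971 bp wide with a median of 609 bp. The pseudogene HNRNPA1P9, which lies within ABCB1, was overlapped by 2 SOX4 peaks, with folds of 119 and 120, and by 1 STAT6 peak with a fold of 8.54. These values were within the range of the other ABCB1 peaks.

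ABCG2 (chromosome 4, 88090264 to 88231626, 141 kb) showed the same arrangement. SOX4 peaks covered 16.4% of the body and STAT6 peaks 6.80%. From the 3′ end to the innermost start, a stretch of 68.4 kb, lay 11 of the 12 SOX4 summits and 14 of the 15 STAT6 summits, with 32% and 12.9% of the sequence covered. The other 73.0 kb held the pair at the outer start and nothing else. The stretch without SOX4 peaks ran from 88140764 to 88230352, which is 89.6 kb or 63.4% of the gene. The SOX4 folds ranged from 50.5 to 147 with a median of 96.5, and the STAT6 folds from 4.26 to 16.8 with a median of 8.22. The ranges of ABCB1 and ABCG2 thus overlapped almost fully in both lists. The pair with the lowest sum of ranks lay at the 3′ end, where the SOX4 peak from 88089703 to 88093054 had a fold of 147 and the STAT6 peak from 88089977 to 88092552 one of 16.8, the highest STAT6 peak of the gene. No peak of either list fell into flanks as long as the gene that began 5000 bp beyond its ends.

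**Figure D3:**
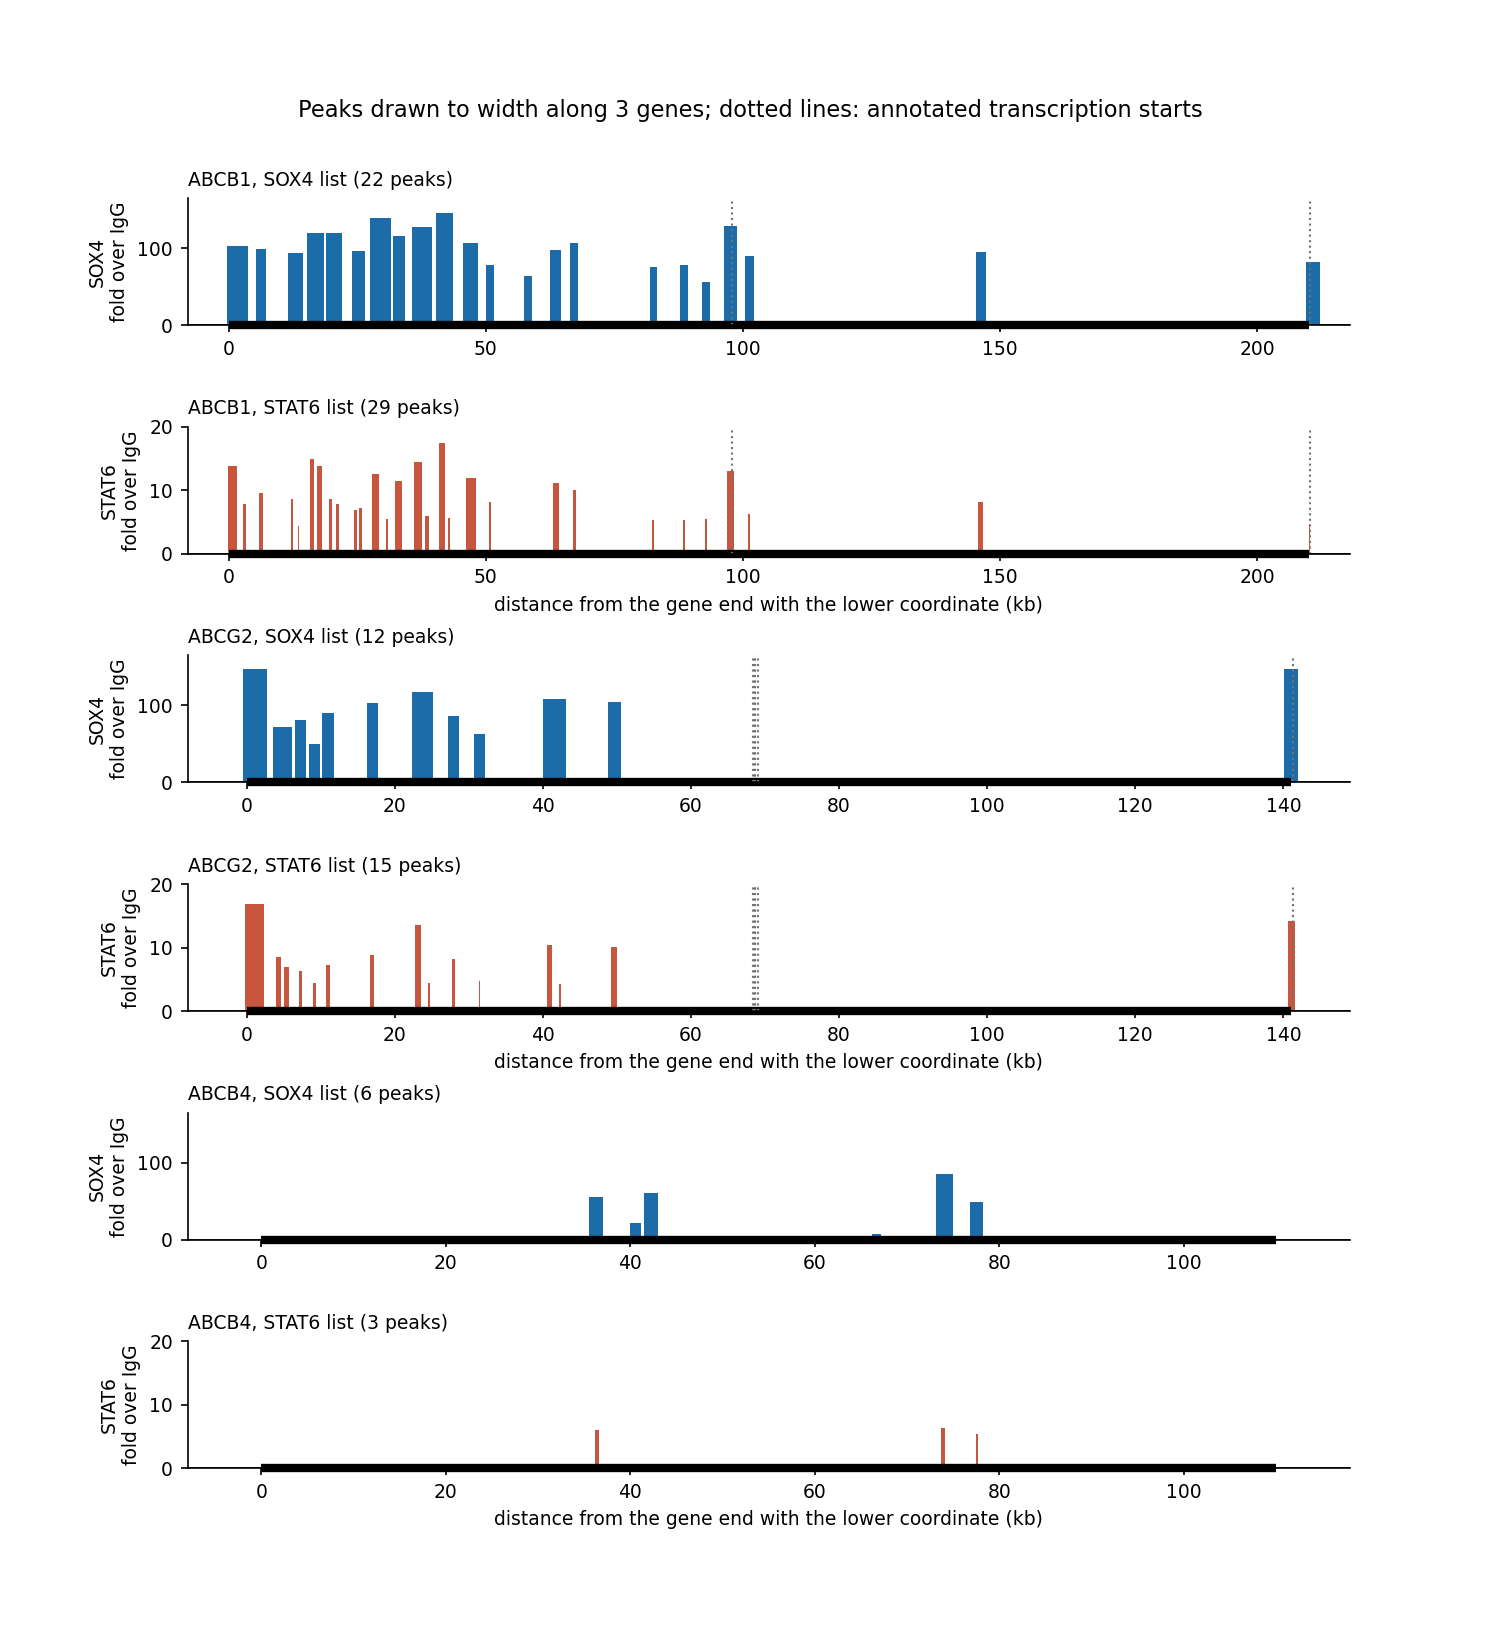
Peaks of both lists along ABCB1, ABCG2 and ABCB4, drawn to their width in kb from the gene end with the lower coordinate, with the fold enrichment over IgG as height, the gene as a black bar and annotated starts as dotted lines (none are given for ABCB4). In ABCB1 and ABCG2 most peaks lie left of the inner starts, which is toward the 3′ end, and one pair of peaks stands at the outer start.

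ABCB4 lies next to ABCB1 on chromosome 7, from 87365896 to 87476027, with 27 kb between the genes. Its peaks fell into 2 groups inside the body and none reached an end of the gene. The SOX4 peaks nearer the lower coordinate had folds of 55 (87401433 to 87402942), 21.9 (87405869 to 87407006) and 61.4 (87407401 to 87408886). Those nearer the higher coordinate had folds of 7.29 (87432118 to 87433107), 85.1 (87438991 to 87440868) and 49.4 (87442668 to 87444134). Together they covered 7.69% of the body. The highest of them, 85.1, was below the median of ABCB1, and the 3 lowest, 7.29, 21.9 and 49.4, were below every SOX4 peak of ABCB1 and ABCG2.

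STAT6 peaks were present in 3 of the 6 SOX4 peaks of ABCB4, with folds of 6.01 (87402088 to 87402469), 6.32 (87439520 to 87440016) and 5.37 (87443308 to 87443616), and covered 1.08% of the body. Inside the gene, the 35.5 kb next to the lower end and the 31.9 kb next to the higher end held no SOX4 peak. CROT, which overlaps ABCB4 at the lower end, held no peak. Between ABCB4 and ABCB1 the SOX4 list had 1 peak, from 87487403 to 87488100, with a fold of 2.57 and rank 4341, and the STAT6 list had none. ABCB1 and ABCB4 are paralogs with similar sequence, and how reads that match both were treated is not given in the sources used here. The part of such reads was not tested.

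The remaining 5 genes gave no peak on their bodies. The SOX4 peak of ABCC3 on chromosome 17, from 50693100 to 50693497, began 0.847 kb beyond the gene, overlapped the neighbouring gene ANKRD40 and had a fold of 3.12, rank 4026 of 4513. It was lost when the gene body alone was used or a −log10 q of at least 5 was required. ABCB11, the bile salt export pump, had its nearest SOX4 peak 17.6 kb away with a fold of 8.38 and its nearest STAT6 peak 48983 kb away. ABCC4, an exporter of cyclic nucleotides and other organic anions, had its nearest SOX4 peak 129 kb away with a fold of 4.62. For ABCC1, the exporter of glutathione conjugates that is widely expressed in tumor cells, the nearest SOX4 peak was 461 kb away with a fold of 6.34. For ABCC2, the canalicular exporter of bilirubin glucuronides, it was 589 kb away with a fold of 6.20. The nearest STAT6 peaks lay 2666 kb from ABCC1, 2720 kb from ABCC2, 12784 kb from ABCC3 and 12871 kb from ABCC4. All of these SOX4 folds were below every SOX4 peak of ABCB1 and ABCG2.

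Of the 4513 peaks in the SOX4 list, 41 (0.908%) fell on the 8 genes, and of the 1078 in the STAT6 list, 47 (4.36%) did. Their bodies add up to 1181 kb, of which SOX4 peaks covered 7.11% and STAT6 peaks 2.87%. In flanks of equal length the shares were 2.56% and 0.874%, and these flanks include all of ABCB4 for ABCB1 and part of ABCB1 for ABCB4. The median SOX4 fold at the 8 genes was 93.3, against 5.83 for the 4472 other SOX4 peaks, and 37 of the 41 had a fold of at least 50, against 13.0% of the whole list. The 4 below 50 were 3 peaks of ABCB4 and the ABCC3 peak. The median SOX4 width was 1863 bp against 886 bp. In the STAT6 list the peaks at these genes were not set apart in this way, with a median fold of 8.09 against 7.27 and a median width of 536 bp against 578 bp for the 1031 others. Neighbouring summits within a gene were 4.57 kb apart in the median for SOX4 and 3.35 kb apart for STAT6. No test was possible with 1 library each.

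**Figure D4:**
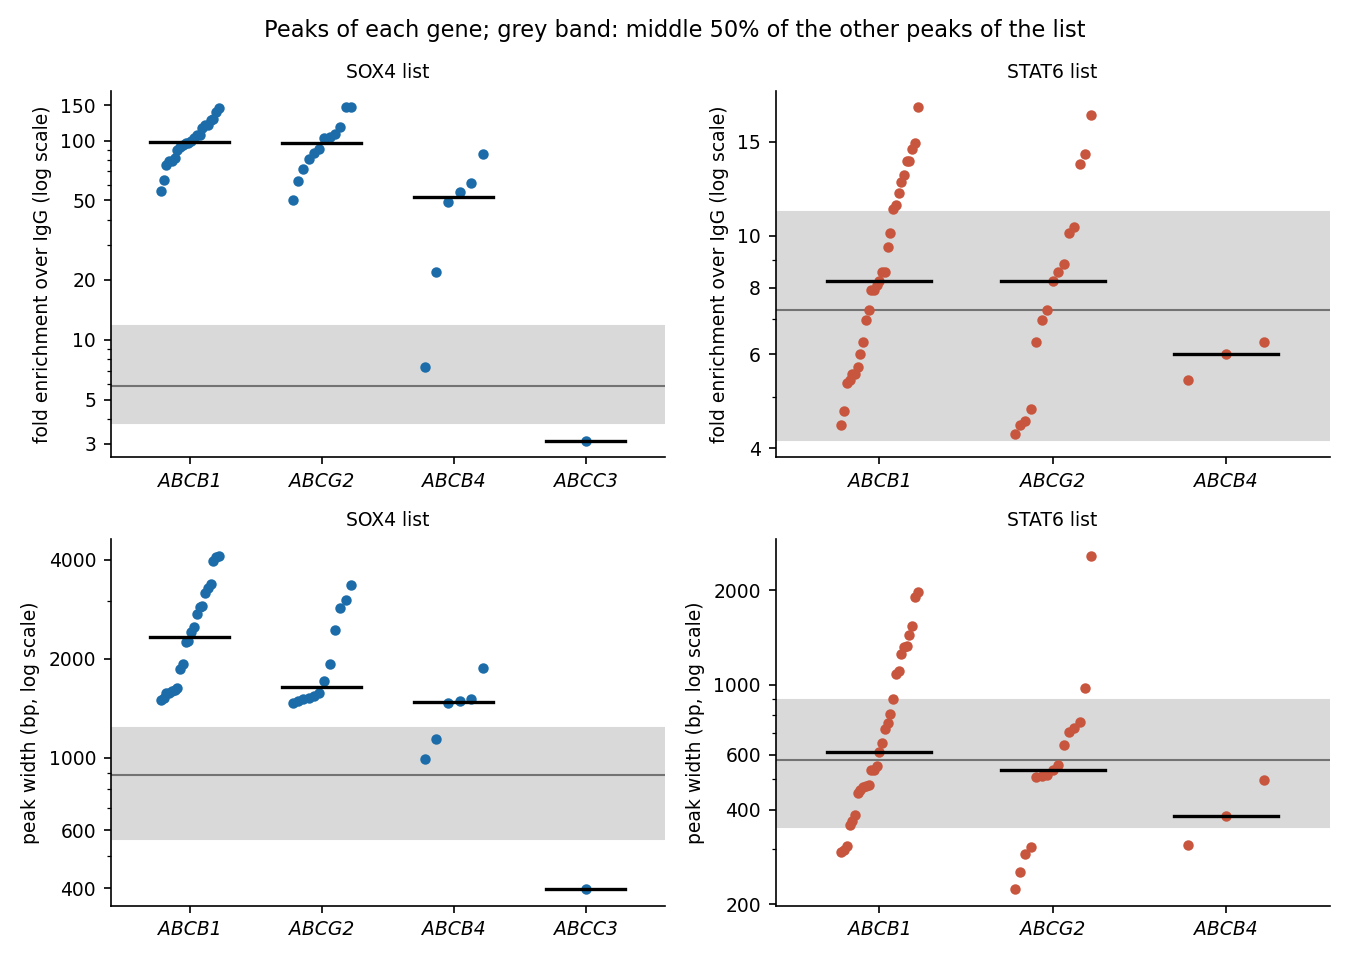
Fold enrichment over IgG (top) and peak width in bp (bottom), both on log axes, for every peak of each gene in the SOX4 list (left, blue) and the STAT6 list (right, red), with gene medians as black lines. The grey band spans the middle 50% of the other peaks of the list and the grey line their median. All SOX4 peaks of ABCB1 and ABCG2 lie above the band in both measures, and STAT6 medians lie inside it.

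Several peaks per gene were less usual in the SOX4 list than in the STAT6 list. Of the 1272 protein-coding genes with a SOX4 peak, 80.4% had 1 peak, and 46 had 5 or more. By number of SOX4 peaks ABCB1 shared rank 3 with 1 other gene, ABCG2 shared rank 11 and ABCB4 shared rank 31. Of the 216 genes with a STAT6 peak, 50% had 1 peak, and 50 had 5 or more. ABCB1 held rank 2 in that list, ABCG2 shared rank 9 and ABCB4 shared rank 68.

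All 47 STAT6 peaks at these genes lay wholly inside a SOX4 peak (100%, Wilson 95% interval 92.4% to 100%). Elsewhere 77.7% of STAT6 peaks overlapped a SOX4 peak (Wilson 95% interval 75.1% to 80.1%). In the other direction 36 of the 41 SOX4 peaks held a STAT6 peak (87.8%, Wilson 95% interval 74.5% to 94.7%), against 13.5% of the other SOX4 peaks. The 5 without one were 1 peak of ABCB1 with a fold of 63.6 (87560515 to 87562035), 3 of ABCB4 and that of ABCC3. Their folds, 3.12 to 63.6, overlapped only the lower end of the range of the 36 others, 49.4 to 147. SOX4 peaks away from these genes had a median fold of 5.83. The part of peak height in the contrast of 87.8% with 13.5% was not tested. Of the 36, 25 held 1 STAT6 peak and 11 held 2, and the latter were wider, with a median of 3165 bp against 1607 bp. Because SOX4 peaks were wider, a reciprocal overlap of 50% was met by 12.8% of the STAT6 peaks. The Wilson intervals of these shares cover counting error over peaks only. Peaks along the same few genes in 1 pair of libraries are not independent, so the intervals do not test a difference from the peaks elsewhere.

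The summits of the 47 overlapping pairs were 70.0 bp apart in the median, and 33 pairs (70.2%) had summits within 200 bp. The 803 pairs elsewhere had a median of 73.0 bp and 62.3% within 200 bp. In ABCG2 the median was 37.0 bp, in ABCB4 51.0 bp and in ABCB1 84.0 bp. The largest distance, 2556 bp, belonged to a SOX4 peak of ABCB1 that held 2 STAT6 peaks.

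Heights in the lists moved together along these genes. Over the 36 SOX4 peaks with a STAT6 peak inside, the SOX4 fold and the highest STAT6 fold had a Pearson r of 0.88 and a Spearman rho of 0.90. Within ABCB1 r was 0.84 over 21 peaks, and within ABCG2 it was 0.95 over 12. The points are sites of 1 pair of libraries, share the IgG library as denominator and lie on the same 3 genes, so these values are descriptions. The SOX4 fold was 10.9 times the STAT6 fold in the median pair, close to the 10.7 of the pairs elsewhere. The read numbers of the libraries are unknown, so the ratio cannot be read as a difference in binding.

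**Figure D5:**
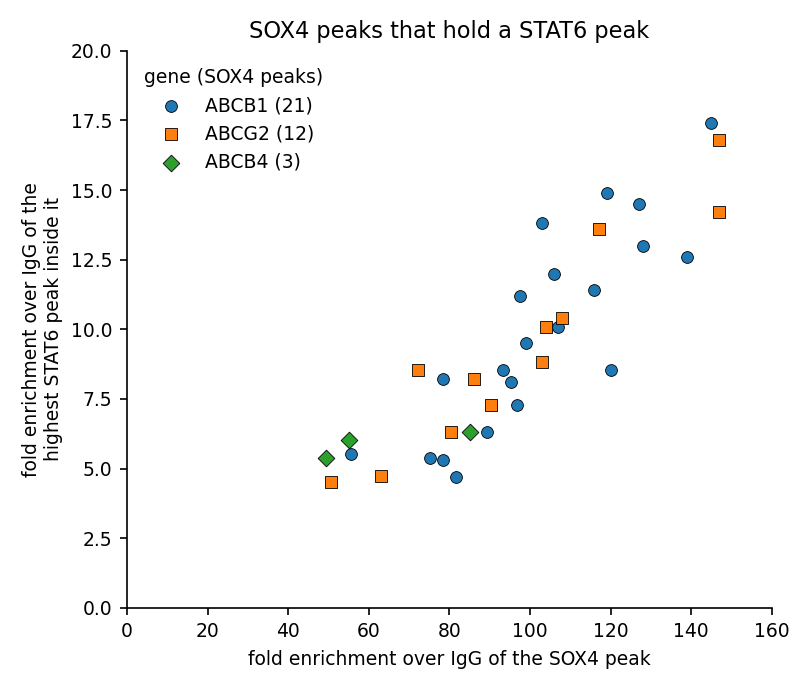
Fold enrichment over IgG of each SOX4 peak that holds a STAT6 peak (horizontal axis) against that of the highest STAT6 peak inside it (vertical axis), with 21 peaks of ABCB1 as circles, 12 of ABCG2 as squares and 3 of ABCB4 as diamonds. Peaks high in one list were high in the other, with r = 0.88 over the 36 peaks.

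Of 40 other ABC genes, 3 had a SOX4 peak (7.50%), a share near the 6.35% of all protein-coding genes, and 2 had a STAT6 peak (5.00%), beside 1.08%. CFTR, the chloride channel of the family, held 21 SOX4 and 25 STAT6 peaks with folds of up to 148 and 15.2, and SOX4 peaks covered 22.5% of its body. Its counts and coverage lay between those of ABCG2 and ABCB1. ABCB8, a mitochondrial transporter, held 1 peak of each list, with folds of 196 and 19.9, but the SOX4 peak ran from the end of ABCB8 into ASIC3, an acid-sensing channel gene, and the STAT6 peak overlapped ASIC3 alone. ABCB5, named after its value was seen, had 1 SOX4 peak with a fold of 6.04. The other 37 had none.

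Genes that regulate these transporters in liver were examined in the same way. No peak of either list was assigned to the xenobiotic receptors NR1I2, NR1I3 and AHR, the bile acid receptor NR1H4 and its target NR0B2, the partners RXRA and ARNT, the oxidative stress pair NFE2L2 and KEAP1, HNF4A or PPARA. Of all protein-coding genes, only 6.35% had a SOX4 peak and 1.08% a STAT6 peak. The absence of peaks in so short a list therefore says little about these genes.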

How the data were processed

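CUT&RUN libraries of Hep3B cells with SOX4, STAT6 or IgG antibody were sequenced and processed by the authors. Per the labels, BWA, Partek and the build hg38 were used. The study names Partek Flow for peak calling, and the calling method within it, its threshold and read numbers are not given in the sources used here. Peak names state that each list was called against IgG. For each peak the authors deposited a start, end and summit, a fold enrichment over IgG (a ratio) and −log10 p and −log10 q values. The lowest −log10 q was 1.31 for SOX4 and 1.35 for STAT6. The display score was not used, and no IgG peak list was used.

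Gene bounds came from RefSeq assembly GRCh38.p14, whose table used here holds no exons, so exons and introns were not analysed here, and strands were known only for the 5 genes with promoter entries. Positions are 1-based. Lists were overlapped by at least 1 bp. Folds and ranks were compared within their own list. The share of a body is the union of peaks cut to the gene. Counting, coverage and overlap steps were tested on simulated data. No p-value was computed. The genes named are the 8 genes with their highest or nearest peaks, annotated genes that share their peaks, and those of 2 further lists (40 other ABC genes, and regulators of transporters, of which 1 is not reported here) with peaks in both lists. The regulators without peaks are named as the list itself. CROT, ABCB5 and the RUNDC3B peaks beyond ABCB1 were added after values were seen. The genes and lists were chosen with earlier results of these data known. Alternatives were a margin of 0 or 5000 bp, a −log10 q or a fold of at least 5, summits in place of peaks, and stricter overlap. Python 3.11.15, numpy 2.4.6, pandas 2.3.3, scipy 1.17.1 and matplotlib 3.10.9 were used.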

Additional observations from a re-analysis of the deposited data

How the results depend on the processing

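Over 15 results, 49 alternatives were run. Shares of peaks that overlap were held unchanged within their Wilson interval and other values within a factor of 1.5. By these bounds 46 alternatives stayed and 3 moved. Reversal was not assessed as a separate outcome. All STAT6 peaks at the genes (100%) met a SOX4 peak, but 12.8% did so when a reciprocal overlap of 50% was required and 70.2% when summits had to lie within 200 bp. For SOX4 peaks the share of 87.8% became 14.6% with the reciprocal overlap. The first change follows from the widths, since SOX4 peaks were 3.78 times as wide in the median pair. SOX4 peaks were assigned to 3 genes in place of 4 with the gene body alone, with summits, and with a −log10 q or a fold of at least 5, each time through the loss of ABCC3. No paired analysis was possible because no group held more than 1 library. With no replicates, no read numbers and no IgG track, the depth behind each peak is unknown, and whether the absence of a peak reflects depth was not tested.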
